A study of Mus musculus with 4 samples.

Results

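The BCL2 family survival and death genes described here were 10 mouse genes, Bcl2, Bcl2a1a, Bcl2a1b, Bcl2a1d, Bcl2l1, Mcl1, Bax, Bak1, Bcl2l11 and Bbc3. They were taken by symbol from the 32285 genes counted in the single-cell libraries, and all 10 were found. Their UMIs (unique molecular identifiers, 1 per captured RNA molecule) were summed over immune cells of YUMMER1.7 tumors, a UV-mutagenized mouse melanoma line with mutant Braf and loss of Cdkn2a. Male wild-type C57BL/6J mice aged 7 to 8 weeks received 300000 tumor cells under the skin and were treated from day 7 with isotype control, anti–PD-1 (10 mg/kg), anti-MIF (20 mg/kg) or both antibodies (anti–PD-1/anti-MIF). Where 4 values of a cohort follow each other, the arms are in that order. The long treatment cohort had 4 doses over 2 weeks with tumors taken at day 21, and the short treatment cohort had 2 doses over 1 week with tumors taken at day 14. Dissociated tumors were sorted and mixed to 80% CD45+ and 20% CD45− cells. The arms of a cohort carried hashtag antibodies and were pooled into 1 library, so each arm of a cohort was 1 hashtagged sample. How many mice stood behind a hashtag is not given in the sources used here, and cohort, library and day cannot be told apart.

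Gene UMIs summed to 23702910 over 2516 barcodes of the long library and to 31799441 over 4987 barcodes of the short one, and 20 barcode sequences occurred in both. After hashtag assignment and quality limits, 1671 and 3119 cells of the 4 arms remained. Lineages were gated on markers outside the family, each with at least 1 UMI. T cells had Cd3e, NK cells Ncr1, mature dendritic cells (DCs) Ccr7 with Fscn1, and monocyte/macrophages Lyz2 with Ly6c2 or C1qb. These gates took 539 T cells (median 4378 UMIs per cell), 136 NK cells (5703), 148 mature DCs (7983) and 2685 monocyte/macrophages (7687). Cells that passed several gates (25 long, 33 short) or none (434 and 790) were left out. Levels are CPM, the UMIs of a gene per 1000000 gene UMIs, summed over the gated cells of an arm, over 8 arms, or 7 arms where an arm held fewer than 5 cells. Lineages were compared with edgeR's quasi-likelihood test on these sums, with the arm as a block and Benjamini-Hochberg adjustment over all genes tested. Log2 differences are given with their SE and adjusted p, and a gene was called at an adjusted p below 0.05. A filter on low counts could admit a gene to a fit through 1 gate alone, where it was high. For such a gene the test is not independent of that admission.

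Markers that no gate used were read in the same sums. In the T cell gate, all 5 T cell markers were found, together at 3639 CPM in the long and 3536 CPM in the short cohort, with NK markers at 198 and 332 CPM and monocyte markers at 483 and 861 CPM. The NK gate held its 5 markers at 7469 and 7002 CPM, led by Gzma, with T cell markers at 361 and 236 CPM and monocyte markers (Plac8 highest) at 1222 and 1299 CPM. Mature DCs held their 5 markers at 5303 and 4320 CPM, with monocyte markers at 82.0 and 160 CPM. In each of these 3 gates the summed level of its own markers was above that of each other list named. The monocyte/macrophage gate was mixed, and single arms stood apart in it. Its 5 macrophage markers (Apoe highest) were together at 2287, 2891, 8501 and 3211 CPM in the long arms and at 2281, 959, 1655 and 1383 CPM in the short arms. Its 5 monocyte markers (Plac8 highest) were at 5065, 4544, 1961 and 3667 CPM and at 4260, 5822, 5761 and 5623 CPM. The long anti-MIF arm was thus the highest in macrophage and the lowest in monocyte markers, and the isotype arms of the cohorts lay close to each other in macrophage markers. Its 5 neutrophil markers (S100a8 highest) were at 491, 81.9, 49.1 and 6794 CPM in the long arms, where the anti–PD-1/anti-MIF arm stood far above the rest, and at 488, 87.8, 1155 and 94.1 CPM in the short arms.

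Proteins of the BCL2 family decide whether the outer membrane of the mitochondrion is opened during apoptosis. Guardians such as BCL2, BCL-XL (from Bcl2l1), MCL1 and A1 (from the Bcl2a1 genes) hold the pore-forming effectors BAX and BAK in check, and BH3-only proteins such as BIM (from Bcl2l11) and PUMA (from Bbc3) bind the guardians and release the effectors. Lymphocytes are known to depend on BCL2 and MCL1 for survival, and A1 is a guardian of blood cells induced by NF-κB. In mice the A1 gene is multiplied into near-identical copies on chromosome 9.

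Since the 3 Bcl2a1 copies differ at few bases, the start of their coding sequences is shown to mark what a read must cover to tell them apart. Bcl2a1a lies at chr9:88956900-88962419 (plus strand), Bcl2a1b at chr9:89199209-89207827 (plus strand) and Bcl2a1d at chr9:88723285-88731914 (minus strand), all GENCODE vM21 on GRCm38. Each coding sequence is 519 bases long in 2 exons. The first 240 coding bases, 5′ to 3′, are exonic and lie at chr9:88957051-88957290, chr9:89199360-89199599 and chr9:88731480-88731719. Capitals mark the 7 positions of the stretch where the 3 genes are not all alike.
Bcl2a1a: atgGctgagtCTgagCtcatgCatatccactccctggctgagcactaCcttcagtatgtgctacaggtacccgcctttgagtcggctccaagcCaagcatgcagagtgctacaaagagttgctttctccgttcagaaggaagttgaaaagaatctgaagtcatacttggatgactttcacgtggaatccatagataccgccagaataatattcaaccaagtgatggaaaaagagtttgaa
Bcl2a1b: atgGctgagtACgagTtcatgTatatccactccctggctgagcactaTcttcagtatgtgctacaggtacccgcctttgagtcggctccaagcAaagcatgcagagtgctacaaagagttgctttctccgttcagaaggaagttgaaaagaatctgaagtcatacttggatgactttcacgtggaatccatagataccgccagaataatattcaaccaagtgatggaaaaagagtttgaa
Bcl2a1d: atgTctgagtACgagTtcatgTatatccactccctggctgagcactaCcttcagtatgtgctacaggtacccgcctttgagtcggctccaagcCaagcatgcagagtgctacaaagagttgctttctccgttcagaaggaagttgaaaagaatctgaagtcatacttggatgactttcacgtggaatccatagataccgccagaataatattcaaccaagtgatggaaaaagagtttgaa
Over the whole coding sequence, Bcl2a1a and Bcl2a1b differed at 11 bases (97.9% identity), Bcl2a1a and Bcl2a1d at 7 (98.7%) and Bcl2a1b and Bcl2a1d at 6 (98.8%). Windows of each transcript were compared with those of the other Bcl2a1 genes, Bcl2a1c included. Of all 90-base windows, 47.0% of Bcl2a1a, 36.1% of Bcl2a1b and 61.6% of Bcl2a1d were shared exactly with another of these genes. Of all 150-base windows, 28.2%, 14.2% and 30.3% were. The read length is not given in the sources used here. A read within such a window cannot be assigned to 1 copy. The split between the copies is therefore uncertain, and results are also given for their sum, to which Bcl2a1c was added. Bcl2a1b also overlaps the gene model Gm29094, which is not among the counted genes. Bcl2a1d overlaps the antisense gene Gm10634 on the other strand.

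The promoters of the 3 copies are shown because all 3 were highest in mature DCs among the 4 gates. The stretches are from RefSeq (GRCm38.p6), lie before the annotated gene starts at chr9:88956796-88956855, chr9:89199105-89199164 and chr9:88731915-88731974, and are written on the strand of the gene. Capitals mark GAGGAAGT, a motif of the myeloid and lymphoid factor PU.1, searched on both strands.
Bcl2a1a: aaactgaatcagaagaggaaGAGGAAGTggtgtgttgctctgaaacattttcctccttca
Bcl2a1b: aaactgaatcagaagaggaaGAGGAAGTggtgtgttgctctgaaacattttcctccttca
Bcl2a1d: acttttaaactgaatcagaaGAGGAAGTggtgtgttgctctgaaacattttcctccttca
All 10 genes matched a promoter entry. GAGGAAGT was found in the 250 bases before the start of 4 of them, Bcl2a1a, Bcl2a1b, Bcl2a1d and Bak1, and in 2.44% of 32817 such windows of all genes. A loose form of the NF-κB motif (GGGA, any 4 bases, CC, both strands) was found in none of the 3 Bcl2a1 windows, before Bak1 and before 1 of 3 starts of Bbc3, and in 17.6% of all windows. The stretches of the 3 Bcl2a1 copies are near-identical, so their matches are not separate ones. Some genes have several windows, so a count of genes cannot be set against a share of windows. These are matches of letters and not measured sites, and a link to the mature DC levels was not tested.

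Among the guardians, Bcl2 (chr1:106538178-106714274, minus strand) was highest in NK cells and T cells, low in monocyte/macrophages and nearly undetected in mature DCs. In T cells its level ran from 223 to 378 CPM over the 8 arms, with a median of 299 and a mean of 304 ± 50.7 (SD). In monocyte/macrophages it ran from 20.6 to 40.4 CPM (median 27.2, mean 28.5 ± 6.79, n = 8). The ranges did not overlap and T cells were higher in 8 of 8 arms, by 3.29 on the log2 scale (SE 0.17, adjusted p = 6.45e-19). Monocyte/macrophages held too little Bcl2 to pass it through the filter, so it entered this fit through T cells and NK cells. Mature DCs of all 8 arms gave 1 Bcl2 UMI among 1293902, against 627 among the 22954165 of monocyte/macrophages. That ratio of levels was 0.0283, with an exact 95% interval for counting error alone of 0.000715 to 0.158, and mature DCs were lower in 8 of 8 arms (adjusted p = 7.02e-08). Bcl2 shares its locus with the antisense gene D630008O14Rik.

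Bcl2 was higher still in NK cells, which held 369 to 938 CPM (median 603, mean 584 ± 193, n = 7). NK cells lay above T cells of the same arm in 7 of 7 arms, by 0.94 (SE 0.17, adjusted p = 0.000135), although the ranges over all arms overlapped slightly. The long cohort alone gave 0.76 (adjusted p = 0.163) and the short cohort alone 1.04 (adjusted p = 0.000746). The NK sums were small, 7 to 73 cells each. With at least 20 cells per sum a single NK sum was left, and the difference was 1.13. The spread in that fit came from the other gates, so it cannot decide whether the call holds. Per cell, with every cell thinned to 2000 UMIs, a Bcl2 UMI was found in 65.1% of 129 NK cells, 165 of 471 T cells and 4.95% of 2604 monocyte/macrophages. It was found in 0 of 143 mature DCs. The exact 95% upper limit of 2.55% is for cells with a UMI at that depth, and it does not limit the share that expresses Bcl2. Without thinning the shares were 89.7%, 54.2%, 16.2% and 0.676%.

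Within T cells, Bcl2 was lower in cells with Cd4 than in cells with Cd8a. T cells with Cd8a and no Cd4 (362 cells) held 144 to 436 CPM (median 310, mean 309 ± 87.1, n = 8). T cells with Cd4 and no Cd8a (62 cells) held 12.3 to 137 CPM (median 66.1, mean 74.5 ± 42.8, n = 7). The groups did not overlap, and the Cd4 cells were lower in 7 of 7 arms (−2.14, SE 0.39, adjusted p = 0.00333). Bcl2 entered this fit through the Cd8a sums, where it was high, so the call is not independent of the filter. In this fit 5 of the 10 genes were tested and Bcl2 alone was called, where 7.1% of 1211 genes were called, 3.22% higher and 3.88% lower. The Cd4 sums held only 5 to 15 cells. With cells thinned to 2000 UMIs the difference was −1.69 and was not called (adjusted p = 0.152), and in the short cohort alone no member was called. The 41 T cells with Foxp3, the factor of regulatory T cells, gave 5 Bcl2 UMIs, and 1 of 37 of them (2.70%, exact 95% interval 0.0684% to 14.2%) had a Bcl2 UMI after thinning, against 38.8% of 330 Cd8a T cells and 12.3% of 57 Cd4 T cells.

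**Figure D1:**
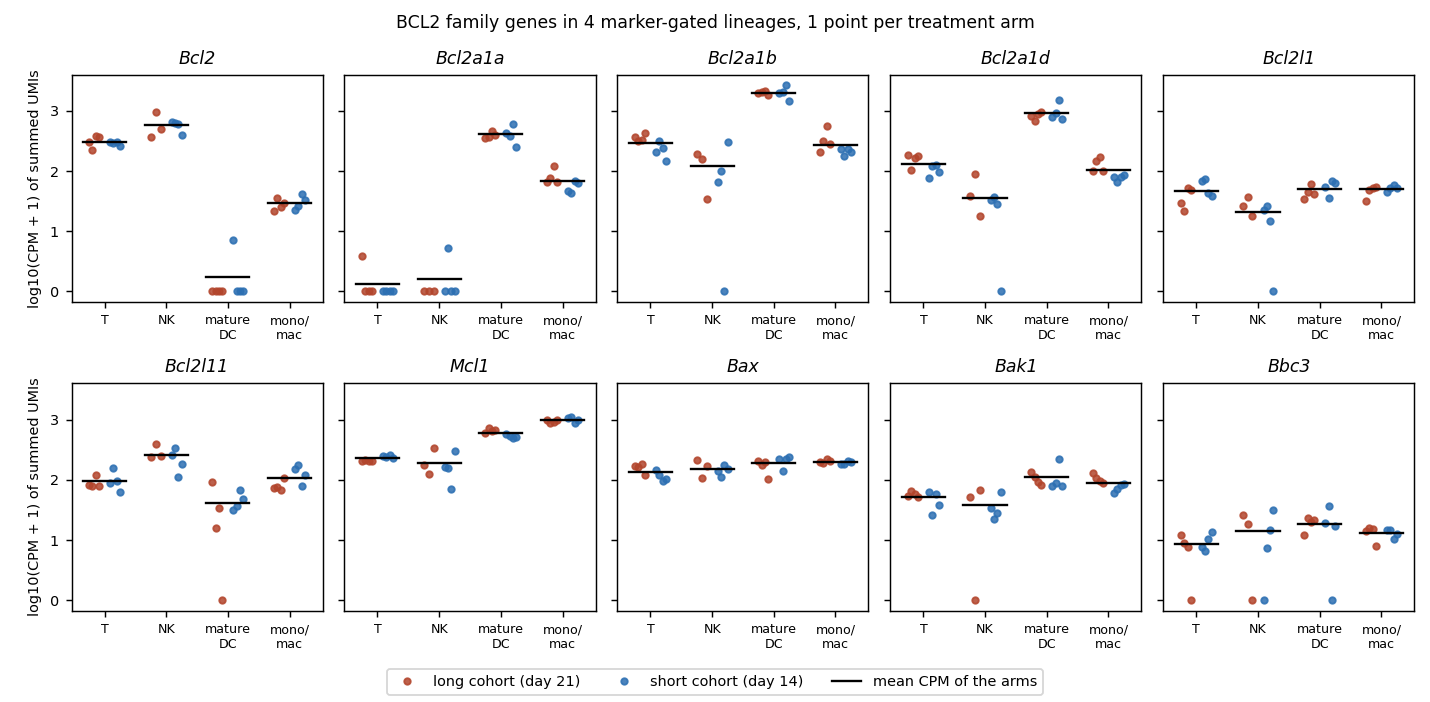
Level of each of the 10 genes (log10 of CPM + 1 of summed UMIs) in T cells, NK cells, mature DCs and monocyte/macrophages, with 1 point per arm in red for the long and blue for the short cohort and a bar at the mean CPM of the arms. Bcl2 lay between 223 and 938 CPM in every T cell and NK cell sum and at 0 in 7 of 8 mature DC sums, while all 3 Bcl2a1 genes were highest in mature DCs.

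The Bcl2a1 guardians were instead highest in mature DCs. Bcl2a1b ran from 1438 to 2698 CPM in mature DCs (median 2008, mean 2011 ± 349, n = 8) and from 177 to 555 CPM in monocyte/macrophages (median 231, mean 275 ± 121, n = 8). Bcl2a1d ran from 667 to 1538 CPM (median 856) against 65.8 to 167 CPM (median 92.3), and Bcl2a1a from 253 to 602 CPM (median 392) against 41.9 to 121 CPM (median 64.9). For each copy the lowest mature DC arm lay above the highest monocyte/macrophage arm. Bcl2a1d was higher in mature DCs by 3.06 (SE 0.17, adjusted p = 2.99e-17), Bcl2a1b by 2.82 (SE 0.21, adjusted p = 7.72e-14) and Bcl2a1a by 2.49 (SE 0.16, adjusted p = 6.74e-16). The sum of the copies, Bcl2a1c included, was higher by 2.85 (adjusted p = 3.57e-15). Of the 10 genes 9 were tested in this fit, with 3 called higher and 3 lower, while 62.1% of the 4545 genes tested were called, 24.8% higher and 37.3% lower. After thinning, 93.0% of 143 mature DCs had a Bcl2a1b UMI, against 36.9% of 471 T cells and 18 of 129 NK cells.

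T cells carried Bcl2a1b and Bcl2a1d but almost no Bcl2a1a. Bcl2a1b in T cells ran from 144 to 421 CPM (median 316, mean 292 ± 89.9), and its difference from monocyte/macrophages was 0.0055 (SE 0.21, adjusted p = 0.984). Bcl2a1d ran from 74.8 to 187 CPM in T cells (difference 0.25, SE 0.18, adjusted p = 0.220). The ranges of both overlapped between the lineages, and Bcl2a1d was called with library sizes alone in place of TMM factors (0.41, adjusted p = 0.0440). For Bcl2a1a, 1 UMI was counted in 539 T cells and 1638 UMIs in monocyte/macrophages. Its ratio of levels was 0.00498 (exact 95% interval for counting error 0.000126 to 0.0278), and T cells were lower in 8 of 8 arms (adjusted p = 1.53e-16). Bcl2a1a entered this fit through the myeloid gates alone. With the copies summed, T cells and monocyte/macrophages differed by −0.17 (adjusted p = 0.423).

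The copies were thus counted in different proportions. Bcl2a1a made up 1 of 1272 Bcl2a1 UMIs in T cells (0.0786%, exact 95% interval 0.00199% to 0.437%) and 2 of 128 in NK cells (1.56%, 0.190% to 5.53%). It made up 547 of 4351 in mature DCs (12.6%, 11.6% to 13.6%) and 1638 of 11139 in monocyte/macrophages (14.7%, 14.1% to 15.4%). The intervals of the lymphoid gates lay below those of the myeloid gates. The ratio of Bcl2a1d to Bcl2a1b UMIs moved less, from 0.326 in NK cells and 0.340 in monocyte/macrophages to 0.426 in mature DCs and 0.440 in T cells. The 4th copy, Bcl2a1c, gave 0.873% or less of the Bcl2a1 UMIs of each of these 4 gates. These intervals cover counting error only, and how the authors' counting placed reads that fit several copies was not tested.

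**Figure D2:**
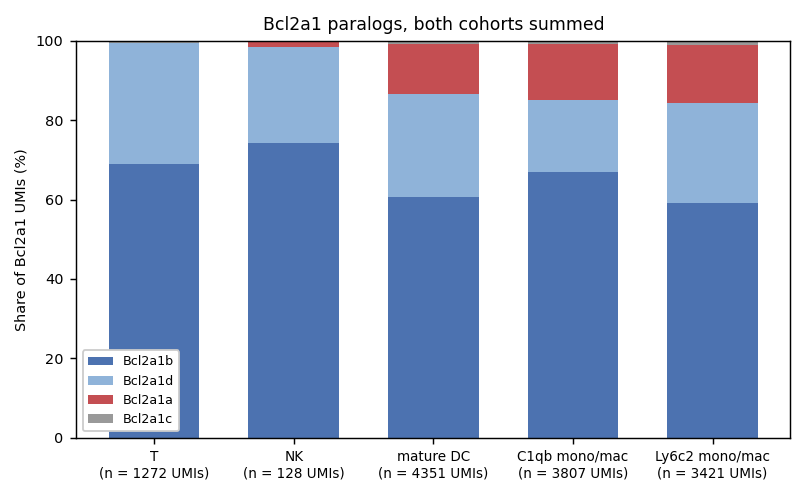
Share of all Bcl2a1 UMIs (%) that was counted on Bcl2a1b, Bcl2a1d, Bcl2a1a and Bcl2a1c in T cells, NK cells, mature DCs, C1qb monocyte/macrophages and Ly6c2 monocyte/macrophages, both cohorts summed. The Bcl2a1a share was 0.0786% in T cells and 1.56% in NK cells, and 12.6% to 14.6% in the myeloid groups.

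NK cells were lower in Bcl2a1b and Bcl2a1d than T cells (Bcl2a1a gave only 2 UMIs in NK cells and 1 in T cells). Their Bcl2a1b level ran from 0 to 304 CPM (median 97.5, mean 121 ± 105, n = 7) and lay under that of T cells in 6 of 7 arms, by −1.47 (SE 0.31, adjusted p = 0.000829). Bcl2a1d was lower in 7 of 7 arms (−1.78, SE 0.32, adjusted p = 8.37e-05). Against T cells, 2 of 9 genes tested were called higher and 3 lower in NK cells, with 12.8% of 4545 genes called, 5.79% higher and 7.02% lower. With at least 20 cells per sum, Bcl2a1b differed by −1.35 and Bcl2a1d by −1.48. That limit left 1 NK sum, so it cannot decide whether the 5 calls hold.

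Mcl1 (chr3:95658788-95663176, plus strand) encodes a short-lived guardian on which many blood cells depend. It was highest in monocyte/macrophages, at 874 to 1106 CPM (median 978, mean 974 ± 82.6, n = 8), intermediate in mature DCs at 491 to 734 CPM (median 586, mean 596 ± 87.9), and low in T cells at 201 to 253 CPM (median 221, mean 225 ± 21.4). These 3 ranges were separate from each other. T cells lay below monocyte/macrophages (−2.25, SE 0.15, adjusted p = 1.38e-15) and so did mature DCs (−0.77, SE 0.15, adjusted p = 2.19e-05), each in 8 of 8 arms. NK cells, at 68.5 to 332 CPM (median 162), did not differ from T cells past the threshold (−0.37, SE 0.20, adjusted p = 0.265). In the comparison of T cells with monocyte/macrophages 9 of the 10 genes were tested. Bcl2 was called higher and Bcl2a1a, Mcl1, Bax and Bak1 lower, against 68.2% of 4545 genes called, 34.1% in each direction.

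Bcl2l1 (chr2:152780668-152831728, minus strand), the gene of BCL-XL, was low in all gates. Its mean was 46.1 ± 18.1 CPM in T cells, 48.8 ± 8.23 in monocyte/macrophages, 49.7 ± 12.9 in mature DCs (n = 8 each) and 19.7 ± 11.2 in NK cells (n = 7). NK cells lay below T cells in 6 of 7 arms (−1.17, SE 0.32, adjusted p = 0.0107), on 20 UMIs in all. Neither T cells (−0.21, adjusted p = 0.415) nor mature DCs (0.027, adjusted p = 0.928) differed from monocyte/macrophages past the threshold. The 41 Foxp3 T cells gave 32 Bcl2l1 UMIs, of which 17 came from the 17 cells of the long anti-MIF arm. After thinning, 24.3% of 37 Foxp3 T cells (exact 95% interval 11.8% to 41.2%) had a UMI. The share was 8.70% of all 471 T cells, among which they are counted. No test was made for the Foxp3 cells, since only 2 arm sums held 5 or more.

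Both effectors were found in every lineage. Bax (chr7:45461697-45466898, minus strand) ran from 180 to 217 CPM in monocyte/macrophages (median 194, mean 195 ± 11.9) and from 93.7 to 179 CPM in T cells (median 132, mean 136 ± 32.0). T cells were lower in 8 of 8 arms with no overlap, though the nearest arms lay side by side, by −0.65 (SE 0.13, adjusted p = 5.87e-05). Mature DCs (101 to 237 CPM, median 200) did not differ from monocyte/macrophages past the threshold (−0.17, SE 0.15, adjusted p = 0.334), nor did NK cells (106 to 216 CPM, median 152) from T cells (0.14, SE 0.19, adjusted p = 1). Bak1 (chr17:27019810-27029009, minus strand) ran from 60.4 to 128 CPM in monocyte/macrophages (median 86.4) and from 25.02 to 63.1 CPM in T cells (median 55.0). It was lower in T cells in 7 of 8 arms (−0.99, SE 0.17, adjusted p = 2.56e-06), and its ranges overlapped. Ggnbp1 lies over Bak1 on the other strand.

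The BH3-only gene Bcl2l11 (chr2:128126038-128162547, plus strand), which encodes BIM, had its highest mean level in NK cells. It ran there from 110 to 389 CPM (median 249, mean 253 ± 92.9, n = 7), against 62.8 to 158 CPM in T cells (median 85.2, mean 95.2 ± 30.4, n = 8). NK cells were higher in 7 of 7 arms, by 1.32 (SE 0.25, adjusted p = 0.000152), and each cohort alone gave the same call (1.59, adjusted p = 0.00848, and 1.12, adjusted p = 0.00281). NK cells thus had the highest mean level of both the guardian Bcl2 and its antagonist Bcl2l11 among the gates. Mature DCs held 0 to 89.4 CPM (median 34.0) and monocyte/macrophages 67.2 to 175 CPM (median 93.1). Mature DCs were lower in 7 of 8 arms (−1.61, SE 0.30, adjusted p = 1.31e-05), on 44 UMIs. Bbc3 (chr7:16308393-16318205, plus strand), a target of p53 that encodes PUMA, gave 20 UMIs in T cells, 9 in NK cells, 24 in mature DCs and 295 in monocyte/macrophages. Its mean level ran from 7.51 to 17.7 CPM among the gates, and it did not pass the filter on low counts in the lineage fits.

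Monocyte/macrophages were split by 1 marker each into C1qb cells without Ly6c2 (469 cells, macrophage side) and Ly6c2 cells without C1qb (1647 cells, monocyte side). The 569 cells with both markers were left out of this split. C1qb cells held more of all 3 Bcl2a1 genes and less Mcl1. Bcl2a1b ran from 121 to 699 CPM in C1qb cells (median 515, mean 501 ± 183) and from 109 to 354 CPM in Ly6c2 cells (median 147, mean 171 ± 80.3). C1qb cells were higher in 8 of 8 arms, by 1.65 (SE 0.18, adjusted p = 1.08e-06), and the ranges overlapped only through the C1qb sum of the long isotype arm, whose 7 cells gave 4 Bcl2a1b UMIs. Bcl2a1a (mean 115 against 45.5 CPM, 1.45, SE 0.21, adjusted p = 2.84e-05) and Bcl2a1d (mean 166 against 79.4 CPM, 1.12, SE 0.18, adjusted p = 7.50e-05) were also higher in 8 of 8 arms. After thinning, a Bcl2a1b UMI was found in 60.5% of 415 C1qb cells and 18.8% of 1625 Ly6c2 cells.

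Mcl1 moved the other way. C1qb cells held 394 to 1147 CPM (mean 734 ± 235) and Ly6c2 cells 919 to 1303 CPM (mean 1095 ± 122), with C1qb cells lower in 8 of 8 arms (−0.57, SE 0.13, adjusted p = 0.0028). The size differed between cohorts, at −0.91 (adjusted p = 0.00429) in the long and −0.28 (adjusted p = 0.175) in the short cohort alone, and a difference between those values was not tested. Bcl2l1 was higher in C1qb cells in 6 of 8 arms (mean 58.7 against 41.4 CPM, 0.70, SE 0.19, adjusted p = 0.00805), but not past the threshold in the long cohort alone (0.39, adjusted p = 0.397). Bax was higher in 7 of 8 arms (mean 235 against 180 CPM, 0.42, SE 0.13, adjusted p = 0.0167). This call was lost in each cohort alone (0.35 and 0.46), with thinned cells (0.26), without the filter on low counts (0.26) and without the long anti–PD-1/anti-MIF arm (0.37). Bcl2 (0.52, adjusted p = 0.0597), Bcl2l11 (−0.11) and Bak1 (−0.21) were not called. In all 9 genes were tested, with 5 called higher and 1 lower, and 30.5% of 6034 genes were called, 14.1% higher and 16.4% lower. The neutrophil markers of the Ly6c2 cells, 3083 CPM over the long and 555 CPM over the short cohort, were not spread evenly, since the long anti–PD-1/anti-MIF arm held most of those of long monocyte/macrophages. Without that arm Bcl2a1b differed by 1.59 (adjusted p = 8.30e-06), Bcl2a1a by 1.42, Bcl2a1d by 1.11, Bcl2l1 by 0.67 and Mcl1 by −0.57, and all 5 were called.

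**Figure D3:**
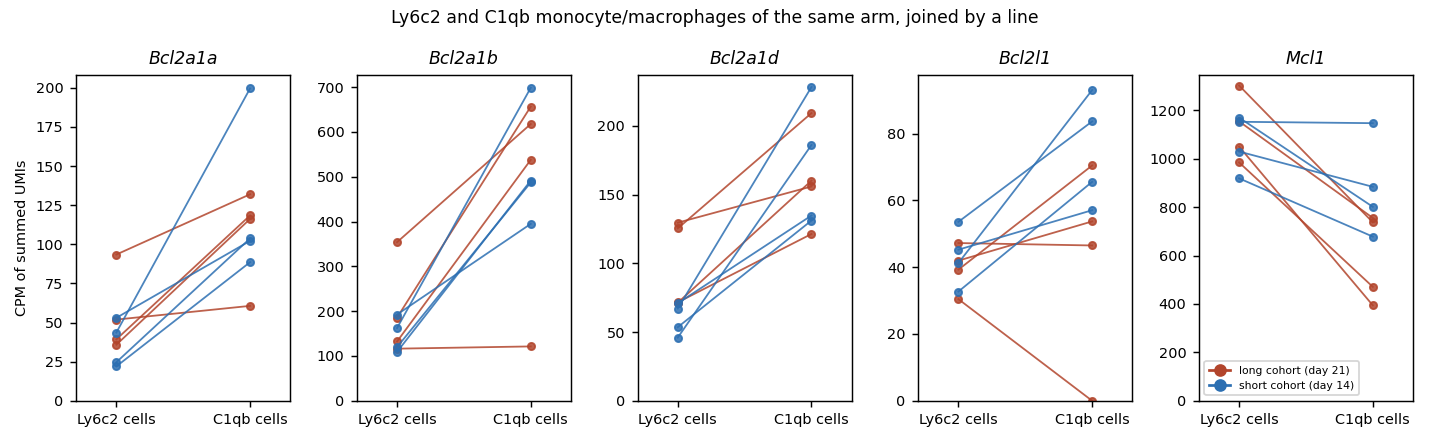
Level (CPM of summed UMIs) of Bcl2a1a, Bcl2a1b, Bcl2a1d, Bcl2l1 and Mcl1 in Ly6c2 cells and C1qb cells, with a line joining the same arm, red for the long and blue for the short cohort. The lines of the 3 Bcl2a1 genes rise and those of Mcl1 fall in all 8 arms, some only slightly. The flattest Bcl2a1b line is the long isotype arm (116 to 121 CPM).

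The other genes of the apoptosis pathway were read from a list of 35. In T cells against monocyte/macrophages 17 were tested, with 4 called higher and 8 lower (median difference −0.45, against 0.0041 over all genes). Among those higher in T cells were the inhibitor of apoptosis gene Birc2 (1.86, SE 0.21), the ubiquitin ligase gene Huwe1 (0.81, SE 0.14) and the tumor suppressor gene Trp53 (0.48, SE 0.16). The mitophagy receptor gene Bnip3 (−2.58, SE 0.22), the BH3-only gene Pmaip1 (−1.0, SE 0.21), the mitochondrial protease gene Htra2 (−0.89, SE 0.27), the channel gene Vdac2 (−0.88, SE 0.15) and the cytochrome c gene Cycs (−0.81, SE 0.14) were lower. Over all genes, 34.1% were called in each direction. In NK cells against T cells, Cycs was higher (0.86, SE 0.17) and Pmaip1 lower (−3.0, SE 0.57), and 15 of 17 were not called (median −0.24, against −0.045 over all genes, of which 5.79% were called higher and 7.02% lower).

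In mature DCs against monocyte/macrophages 9 of 17 tested genes of the list were called higher and 4 lower (median 0.82, against −0.22 over all genes, of which 24.8% were called higher and 37.3% lower). Bcl2l14, a BCL2 relative, rose from a mean of 2.45 to 348 CPM (7.51, SE 0.32, adjusted p = 4.22e-18). Birc2 rose from a mean of 18.1 to 309 CPM (4.0, SE 0.20, adjusted p = 2.56e-18). Monocyte/macrophages held too little of Bcl2l14 and Birc2 to pass them through the filter on low counts. These genes entered the fit through gates where they were higher, so their calls are not independent of the filter. Htra2 (2.18, SE 0.23) and Pmaip1 (1.44, SE 0.19) were also higher, while Bnip3 (−3.54, SE 0.32), Cycs (−1.45, SE 0.17) and the initiator caspase gene Casp8 (−1.32, SE 0.29) were lower. In C1qb against Ly6c2 cells 0 of 21 were higher and 8 lower (median −0.41, against −0.024 over all genes, of which 14.1% were called higher and 16.4% lower), among them the caspase-8 inhibitor gene Cflar (−1.12, SE 0.16, adjusted p = 1.63e-05), Casp6 (−0.88, SE 0.26), the apoptosome gene Apaf1 (−0.74, SE 0.19) and Casp8 (−0.68, SE 0.17). Birc3 (−0.58, SE 0.15), Bnip3l (−0.57, SE 0.17) and Cycs (−0.41, SE 0.12) were lower too.

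The treatments were compared within monocyte/macrophages and within T cells over the 8 arms, with cohort, anti–PD-1 and anti-MIF as additive terms, so the arms stood in as replicates of each other. No member was called for anti-MIF or anti–PD-1 in either lineage. For anti-MIF in monocyte/macrophages, edgeR called 0 of 9577 genes (0% called), with 653 at an unadjusted p below 0.05 and 15 called by DESeq2. For anti–PD-1 it called 0 (0% called), with 471 at an unadjusted p below 0.05 and 1 by DESeq2. In T cells 2 of 5247 genes were called for anti-MIF (0.0381%, 1 by DESeq2), and 0 for anti–PD-1 (0%), with 197 at an unadjusted p below 0.05 and 0 by DESeq2. Of the 35 genes of the pathway list, 29 were tested in monocyte/macrophages and 16 in T cells, and 0 were called. In an edgeR interaction test of treatment with cohort, no member tested was called, and Bcl2a1a and Bbc3 were not tested in T cells. For anti-MIF and for anti–PD-1, 2 of 9577 genes each were called in monocyte/macrophages and 0 of 5247 each in T cells, with 997 and 271 at an unadjusted p below 0.05 in monocyte/macrophages and 356 and 197 in T cells. The long minus short value of the anti-MIF difference was 1.02 for Bcl2l11 in monocyte/macrophages (adjusted p = 0.293). Bcl2l11 was lower with anti-MIF in each short pair of arms (150.3 to 79.2 and 175 to 119 CPM). The long pairs were mixed (72.2 to 67.2 and 73.97 to 107 CPM). For Bcl2l1 in T cells the long minus short value was 1.81 (adjusted p = 0.464). Bcl2l1 was lower with anti-MIF in each short pair and higher in each long pair. For Bak1 in monocyte/macrophages the long minus short value was −0.66 (adjusted p = 0.409). Bak1 was higher with anti-MIF in each short pair and lower in each long pair. The Bcl2l11, Bcl2l1 and Bak1 values had an unadjusted p below 0.05, and none passed the threshold. The additive terms average over such differences.

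Bcl2a1b in monocyte/macrophages had 1 arm far above the others. It stood at 206, 312, 555 and 279 CPM in the arms of the long cohort. In those of the short cohort it stood at 233, 177, 230 and 207 CPM. The anti-MIF difference was 0.30 (SE 0.22, adjusted p = 0.838), with 2 of 4 pairs of arms higher, and it was 0.065 without the long anti-MIF arm and 0.033 without the long isotype arm. The share of C1qb cells without Ly6c2 among monocyte/macrophages differed between the same arms, at 8.54%, 16.9%, 44.1% and 26.2% for the long cohort against 24.2%, 4.27%, 10.3% and 4.76% for the short one. Cells with both markers made up a further 19.5%, 27.4%, 28.9% and 26.9% for the long cohort and 11.3%, 21.7%, 20.0% and 18.7% for the short one. Within C1qb cells alone the anti-MIF difference of Bcl2a1b was 0.25 (SE 0.33) and was not called, and within Ly6c2 cells alone 0.59 (SE 0.24, adjusted p = 0.779).

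Bcl2a1a had the largest anti-MIF difference of the 10 in monocyte/macrophages, 0.42 (SE 0.16, adjusted p = 0.696), with means of 79.0 and 57.3 CPM and 3 of 4 pairs higher. Bcl2l1 lay higher with anti-MIF in 4 of 4 pairs with no overlap, at 51.6 to 57.9 CPM against 30.9 to 51.5 CPM, by 0.25 (SE 0.15, adjusted p = 0.784). Neither passed the threshold, and with 4 arms a side differences of this size could not be told from the spread between arms. In T cells, Bcl2 stood at 303, 223, 378 and 369 CPM in the arms of the long cohort. In those of the short cohort it stood at 299, 295, 299.9 and 264 CPM. Its difference was 0.23 with anti-MIF (SE 0.18, adjusted p = 1.00) and −0.18 with anti–PD-1 (SE 0.17, adjusted p = 0.994).

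**Figure D4:**
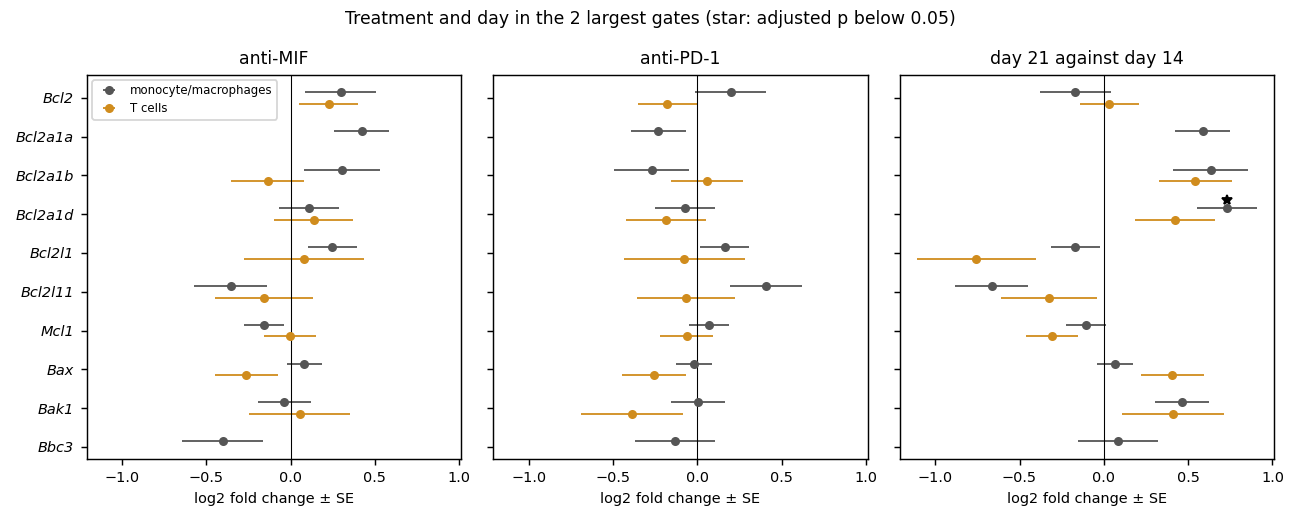
Log2 difference ± SE of each member with anti-MIF, with anti–PD-1 and between day 21 and day 14, in monocyte/macrophages (gray) and T cells (orange), over 8 arm sums each; genes that did not pass the filter have no point. The single star marks Bcl2a1d between days in monocyte/macrophages (0.73), and no treatment difference is starred.

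Between the cohorts, 1 of 10 members was called in monocyte/macrophages, where 7.82% of 9577 genes were called, 3.46% higher and 4.36% lower. This background rested on single arms, since the 749 genes called fell to 1 without the long anti–PD-1 arm, 14 without short anti-MIF, 27 without short anti–PD-1, 48 without short anti–PD-1/anti-MIF and 199 without long anti-MIF, and were 470 without long anti–PD-1/anti-MIF. Bcl2a1d was higher at day 21, at 98.0, 144, 167 and 99.2 CPM against 77.9, 65.8, 77.3 and 86.5 CPM at day 14. The groups did not overlap, and the difference was 0.73 (SE 0.18, adjusted p = 0.0410). The call was lost when any of 5 arms was left out, the long anti–PD-1 or anti-MIF arm or any short arm but isotype (0.55 to 0.77), with thinned cells (0.53), with the fifth hashtag added (0.56) and with the Bcl2a1 copies summed (0.63). In C1qb cells alone the difference was 0.0045 (SE 0.25), and in Ly6c2 cells alone 0.79 (SE 0.21, adjusted p = 0.0579). Bcl2a1a (0.59, adjusted p = 0.0586), Bcl2a1b (0.63, adjusted p = 0.104), Bak1 (0.46, adjusted p = 0.0964) and Bcl2l11 (−0.67, adjusted p = 0.0867) were not called. The long anti-MIF arm, with the most macrophage marker UMIs, is among the arms without which the call was lost. Without the long anti–PD-1/anti-MIF arm, with the most neutrophil marker UMIs, the difference was 0.86 (adjusted p = 0.0312).

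In T cells 0 of 8 members tested were called between days (7.36% of 5247 genes called, 3.68% in each direction), by edgeR or DESeq2, and Bcl2a1b (0.54, SE 0.22, adjusted p = 0.141) and Bax (0.41, SE 0.19, adjusted p = 0.198) had an unadjusted p below 0.05. Bcl2a1b lay higher at day 21 in 4 of 4 arms, at 318 to 421 CPM against 144 to 314 CPM, with no overlap. Mcl1 lay lower at day 21 in 4 of 4 arms without overlap, at 201 to 210 CPM against 232 to 253 CPM (−0.31, SE 0.15, adjusted p = 0.238). The share of Cd8a cells among T cells was 64.0% to 94.4% in the long and 42.4% to 63.1% in the short arms. Within Cd8a T cells alone Bcl2a1b was again higher at day 21 in 4 of 4 arms, at 345 to 418 CPM against 107 to 344 CPM (0.59, SE 0.23, adjusted p = 0.157). Mcl1 overlapped there, at 175 to 205 CPM against 107 to 228 CPM (−0.077, SE 0.21, adjusted p = 0.861), and 0 members were called. Of the pathway list, 2 of 29 genes tested in monocyte/macrophages were called, a share near the 7.82% of all genes, and 0 of 16 in T cells. These were Trp53 (0.53, SE 0.13, adjusted p = 0.0426) and Vdac2 (0.52, SE 0.11, adjusted p = 0.0293), both higher at day 21. Since 1 gene in all was called without the long anti–PD-1 arm, at least 1 of these calls rested on that arm.

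Across the 31 sums of the 4 gates, which share 2 libraries, the genes whose log2(CPM + 1) followed Bcl2 most closely were Ptpn22 (Pearson r = 0.98), Padi2 (0.98), Ms4a4b (0.97), Il18rap (0.97) and Hsd11b1 (0.97). Those closest to Bcl2a1b were Crybg1 (0.90), Rassf2 (0.89), Mthfs (0.88), Tbcb (0.87) and Itm2c (0.87). Mthfs starts 2848 bases from the end of Bcl2a1b. Among those closest to Mcl1 were Gpx1 (0.93), Pirb (0.92), Csf2ra (0.92) and Tlr13 (0.91). These values describe the differences between 4 lineages and carry no test.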

How the data were processed

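Each of the 2 cohorts gave 1 gene expression and 1 hashtag library from a 10x Genomics Chromium 5′ kit. The authors deposited filtered matrices of raw UMI counts, not normalized, of each barcode. The submitters' processing notes name Cell Ranger 7.1.0, mm10, Seurat 5.1.0, R 4.3.2 and DESeq2. The annotation release is not given in the sources used here. Gene positions came from GENCODE vM21 on GRCm38 by Ensembl identifier, and all printed stretches matched chromosome 9 of GRCm38.p6.

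Barcodes were assigned with HTODemux (Seurat 5.3.0, R 4.3.3, positive quantile 0.99). Doublets and negatives (408 and 23 long, 612 and 171 short) were removed, as were cells of another hashtag named for anti-PD1, MIF and DDT (322 and 993). Cells had 200 to 5000 genes and at most 5% mitochondrial UMIs. Doublets within an arm remained, no other doublet caller was run, and free RNA was not subtracted. Sums of at least 5 cells per gate and arm (32926 to 5948331 UMIs in the 4-gate fit) were tested with edgeR 4.0.16 (filterByExpr, TMM, quasi-likelihood, threshold 0.05), after a test on simulated data. SEs are the absolute log2 difference divided by the square root of F. Shares and single levels have exact 95% intervals, which cover counting error only. For shares, cells were thinned to 2000 UMIs and shallower cells left out. P-values measure the spread between arms, not between mice.

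The lineage comparisons pair gates within an arm of a cohort, so the arm was the block. Alternatives were DESeq2 1.42.0, library size without TMM, no filter on low counts, no block, single cohorts, each arm left out, at least 20 cells per sum, other gate, hashtag and quality limits, thinned cells, the other hashtag added, subsets of cells, and the Bcl2a1 copies summed. The members and lists were chosen with earlier results of these data known. Named pathway genes are at most the 8 called with the largest difference per comparison. The genes most like a member are the 5 with the highest Pearson r. Some genes that these rules select are not reported here.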

Additional observations from a re-analysis of the deposited data

Results flagged for a closer look

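In 8 of 40 groups of arm sums, 1 arm lay far from the others by Dixon's criterion. The groups share arms and some hold counts near 0, so no rate by chance is given. In 3 of the 8 flagged groups single UMIs made the difference. Bcl2 in mature DCs was 6.04 CPM in the short isotype arm (1 UMI) and 0 in the other arms, Bcl2a1a in T cells was 2.83 CPM in the long isotype arm (1 UMI), and Bcl2a1a in NK cells was 4.24 CPM in the short anti–PD-1 arm (2 UMIs). In 3 more the arm held few cells. Bcl2a1d in NK cells was 88.5 CPM in the long anti-MIF arm (5 UMIs, 11 cells), and in the 6 mature DCs of the short anti-MIF arm Bcl2a1d was 1538 CPM (69 UMIs) and Bak1 223 CPM (10 UMIs). The other 2 were in the long anti-MIF arm of monocyte/macrophages, with 488 cells, where Bcl2a1a was 121 CPM (719 UMIs, next arm 75.7) and Bcl2a1b 555 CPM (3304 UMIs, next arm 312).

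The fifth hashtag, named for anti-PD1, MIF and DDT, entered the comparisons above only as an alternative. Its monocyte/macrophages held Mcl1 at 1398 CPM in the long cohort (229 cells, 3065 UMIs), where the 4 arms lay between 891 and 984 CPM, and at 1199 CPM in the short cohort (649 cells, 5470 UMIs), where they lay between 874 and 1106 CPM. It is 1 sample per cohort and was not tested.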

How the results depend on the processing

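Of the 24 member differences that were called, 13 kept their call and direction under every alternative that tested them, and over 2053 member values 27 lost the threshold, 15 passed it only in the alternative, and 1 reversed. The value counted as reversed is Bcl2a1a in NK cells against T cells, 2.50 and not called on 3 UMIs. It became −1.56 with the copies summed, which is a different quantity. The sign of this uncalled value also turned among the fits that left out an arm, in the range given below, and that is not in the count. Where a sum replaces a copy, fewer copies are measured apart, and for all other changes the cause was not tested. Calls of Bcl2 and Mcl1 between T cells and monocyte/macrophages and of the 3 Bcl2a1 genes between mature DCs and monocyte/macrophages held throughout.

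Of members called, T cells against monocyte/macrophages gave 5 (5 in every leave-one-out fit) and 8 without the filter on low counts. NK against T cells gave 5 (4 to 5 leaving out an arm) and 3 in the long cohort alone. At least 20 cells per sum left 1 NK sum, so no count is given for that limit. Cd4 against Cd8a T cells gave 1 (always 1 leaving out an arm) and 0 in the short cohort alone or with thinned cells. Day in monocyte/macrophages gave 1 (0 to 3 leaving out an arm), 2 with DESeq2 or a stricter hashtag quantile, 4 without the filter, and 0 with the copies summed, in C1qb cells alone or with thinned cells.

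Counts of all genes called changed as follows. Without the filter they were 6782 for T cells against monocyte/macrophages, 989 for NK against T cells, 5399 for mature DCs against monocyte/macrophages, 395 for Cd4 against Cd8a T cells, 45 and 16 for anti-MIF and anti–PD-1 in monocyte/macrophages, 37 and 43 in T cells, and 1250 for day in monocyte/macrophages. With thinned cells, which hold fewer UMIs, they were 1292, 216, 1120 and 28 for these 4 lineage comparisons, 631 for C1qb against Ly6c2 cells, 1 for anti-MIF and 1 for anti–PD-1 in T cells, and 175 and 132 for day in monocyte/macrophages and T cells. With at least 20 cells per sum they were 6005 for T cells against monocyte/macrophages and 266 for NK against T cells; Cd4 against Cd8a T cells was not run there, since too few sums remained. The long cohort alone gave 335 for NK against T cells, 33 for Cd4 against Cd8a and 919 for C1qb against Ly6c2, and the short cohort alone 369 for NK against T cells, 1831 for mature DCs and 1154 for C1qb against Ly6c2. With 2 UMIs of each gate gene, Cd4 against Cd8a gave 29, anti-MIF in T cells 0 and day in T cells 252. DESeq2 gave 15 and 1 for anti-MIF and anti–PD-1 in monocyte/macrophages, 1 for anti-MIF in T cells and 194 for day in T cells. Anti-MIF in T cells gave 0 with library size alone, with cells of several gates assigned in order or at the stricter hashtag quantile, and 1 in Cd8a T cells alone, where day gave 217. Anti-MIF gave 1 in Ly6c2 cells alone, and day 0 in C1qb cells alone and 469 in Ly6c2 cells alone.

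Leaving out an arm gave 2529 to 3258 genes for T cells against monocyte/macrophages (3101 with all arms), 429 to 567 for NK against T cells (582), 2263 to 2908 for mature DCs (2821), 1408 to 1916 for C1qb against Ly6c2 (1838), and 55 to 169 for Cd4 against Cd8a (86; 55 without long anti-MIF, 169 without long anti–PD-1). It gave 0 to 2 and 0 to 1 for anti-MIF and anti–PD-1 in monocyte/macrophages, 0 to 4 and 0 to 3 in T cells, 136 to 384 for day in T cells (386) and 1 to 1055 for day in monocyte/macrophages (749), with 1 left without the long anti–PD-1 arm, 14 without short anti-MIF, 27 without short anti–PD-1 and 48 without short anti–PD-1/anti-MIF. The Bcl2a1a values of NK against T cells ran from −1.80 to 4.34.

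Pairing gates by arm as the replicate block moved 1 count by over 1.5 times, Cd4 against Cd8a T cells, with 191 genes called without the block. It changed no call of a member. With library size alone, the share of calls that were higher moved from 45.3% to 62.3% for Cd4 against Cd8a and from 50.0% to 63.9% for day in T cells, and the median of all genes moved from 0.0041 to 0.18 for T cells against monocyte/macrophages and from 0.0082 to 0.13 for Cd4 against Cd8a. Depth limits the values of Bbc3 and those of NK, Cd4 and Foxp3 T cells, which rest on few UMIs or cells.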

Other observations

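Cells that passed none of the gates (434 long, 790 short) held 5 neutrophil markers at 2727 and 2705 CPM (S100a9 highest), 5 monocyte markers at 1859 and 2950 CPM and 4 plasmacytoid DC markers at 1406 and 1025 CPM. Their Mcl1 level ran from 661 to 754 CPM in the arms of the long cohort and from 723 to 879 CPM in those of the short cohort, and their Bcl2a1b level from 313 to 547 and from 182 to 227 CPM.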
